A study of Homo sapiens with 18 samples.

Results

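The effect of losing PIK3R1 was read here in cells that received only the solvent. PIK3R1 knockout (KO) libraries of RPMI-8402, a line from human acute lymphoblastic leukaemia of T cells (T-ALL), were set against libraries of the same line carrying a non-targeting control (NT), both after 24 h in DMSO. The comparison used the 3 KO DMSO and the 3 NT DMSO libraries, 6 of the 18 in the series, and all 17346 genes with enough reads to be tested. The other 12 libraries hold the same KO and NT cells after 24 h with CB-103, which blocks assembly of the complex through which NOTCH activates genes, or with a gamma-secretase inhibitor (GSI), which prevents the cleavage that activates NOTCH. The labels used here state no dose for either inhibitor. Whether the KO cells are 1 clone or a pool is not stated, nor whether replicates were separate cultures, so that p-values measure the spread between these libraries, which may be technical.

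PIK3R1 encodes p85-alpha, the regulatory subunit that binds, stabilises and restrains the p110 catalytic subunits of class I phosphoinositide 3-kinase (PI3K) and carries them to activated receptors. The lipid these enzymes make recruits AKT, which promotes growth and glucose uptake, keeps FOXO transcription factors out of the nucleus and activates mTORC1. Developing T cells use this route downstream of the pre-T-cell receptor and the interleukin-7 receptor, and most T-ALL also carries activated NOTCH1.

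Reads assigned to genes totalled 35366055 to 40861569 in the KO DMSO libraries and 33191472 to 43558387 in the NT DMSO libraries. Gene levels are given as CPM, the deposited gene counts scaled to library size. No scaling to gene length was added here, and whether one entered the deposited counts is not stated. For some genes, such as RB1 below, results from these counts differed from those of summed transcript reads. Pearson's r of log2 CPM across the genes tested was 0.987 to 0.991 within groups and 0.980 to 0.984 between them. A measure of fragment length was 210 to 223 nt in replicate 1 of every group of the series, against 250 to 268 nt in replicate 2 and 255 to 265 nt in replicate 3. All 14 precursor T-cell markers were expressed, with a summed level of 4181 to 4625 CPM in KO libraries and 4710 to 4955 CPM in NT libraries. Markers of other cells were low: of 14 myeloid markers 12 lay below 1 CPM in both groups, with CSF1R, ELANE and S100A8 at 0 reads, and of 14 erythroid and megakaryocytic markers 13 did, with HBB and PF4 at 0 reads. The summed level of 11 B-cell markers, mainly BLK and IGLL1, was 70.3 to 75.0 CPM in KO libraries and 54.7 to 58.9 CPM in NT libraries, and that of 12 NK-cell markers, mainly NCAM1, was 20.79 to 24.41 CPM in KO libraries and 11.01 to 17.96 CPM in NT libraries. For 13 adherent-cell markers, mainly PECAM1, it was 224 to 239 CPM in KO libraries and 260 to 282 CPM in NT libraries, with EPCAM and KRT19 at 0 reads. By the test used below, 2 of 14 precursor T-cell markers were higher and 6 lower in KO, 2 of 7 tested B-cell markers were higher, 1 of 4 NK-cell markers was higher and 1 lower, 1 of 4 adherent-cell markers was lower, and 0 of the 6 myeloid and 3 erythroid markers tested were called. The part of these markers in the results was not tested.

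PIK3R1 RNA was lower in the KO libraries but still present. It stood at 23.1, 21.4 and 23.2 CPM in KO, against 44.3, 45.5 and 42.5 CPM in NT, and the groups did not overlap (log2 fold change -0.97 ± 0.09 (SE), adjusted p = 4.1e-07 by edgeR's quasi-likelihood test with Benjamini-Hochberg adjustment over all genes). Of 16 annotated transcripts, only ENST00000521381 reached 1 TPM, a level per transcript length, at 4.98 ± 0.20 TPM in KO and 9.93 ± 0.46 TPM in NT libraries (SD, n = 3 each). Its neighbourhood did not move with it: of the 20 nearest tested genes 0 were higher and 3 lower, with a median log2 fold change of -0.06, and the median over the 745 tested genes of chromosome 5 was -0.008. The guide sequences and the edited position are not analysed here.

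Among the other class I PI3K subunits, those called were mostly slightly lower in KO. Besides PIK3R1, 1 of 10 tested subunits was higher and 4 were lower (median log2 fold change -0.09), beside 9.78% higher and 11.7% lower among all 17346 genes, whose median was 0.0046. PIK3R3, the regulatory subunit p55-gamma, had 49.5, 50.3 and 49.8 CPM in KO, against 68.1, 64.6 and 65.4 CPM in NT, without overlap (-0.41 ± 0.06, edgeR adjusted p = 8.8e-05). PIK3CD, the catalytic p110-delta of leukocytes, had 133, 137 and 132 CPM in KO, against 163, 166 and 160.4 CPM in NT (-0.28 ± 0.05, edgeR adjusted p = 1.9e-04). In both genes the lowest NT library lay above the highest KO library.

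The regulatory PIK3R2 (p85-beta) was at 71.8, 62.1 and 60.8 CPM in KO, against 85.9, 81.7 and 79.6 CPM in NT (-0.34 ± 0.10, edgeR adjusted p = 0.014), but its call was lost without NT DMSO replicate 1 (-0.31, adjusted p = 0.057), KO DMSO replicate 2 (-0.32, adjusted p = 0.052) or KO DMSO replicate 3 (-0.31, adjusted p = 0.058). The catalytic PIK3CA (p110-alpha) was called at -0.24 ± 0.07 with all libraries (edgeR adjusted p = 0.02) and was lost without NT DMSO replicate 1 or 2 or KO DMSO replicate 2 or 3, at values of -0.21, -0.23, -0.23 and -0.24 and adjusted p of 0.081, 0.061, 0.072 and 0.056. The ubiquitous catalytic PIK3CB (-0.13, edgeR adjusted p = 0.16) and the leukocyte PIK3CG (0.11, edgeR adjusted p = 0.43) did not pass the threshold of 0.05, although PIK3CB was called with the sums of the transcript estimates (-0.23, adjusted p = 0.0065). PIK3R6, a regulatory partner of p110-gamma, was higher at a low level, with 1.09, 1.48 and 1.97 CPM in KO, against 0.575, 0.432 and 0.493 CPM in NT (1.59 ± 0.27, edgeR adjusted p = 2.5e-04).

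**Figure D1:**
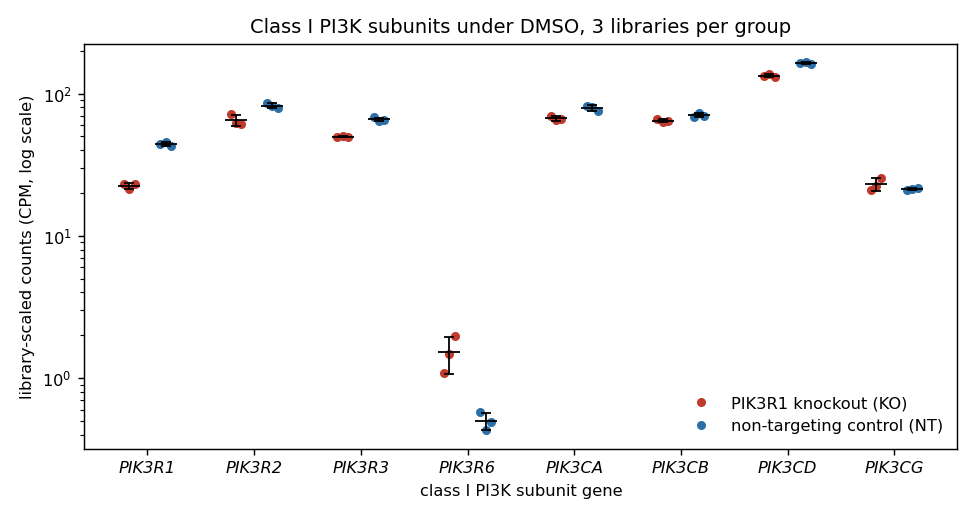
Levels of class I PI3K subunit genes under DMSO in CPM on a log axis, 3 KO libraries left of 3 NT libraries for each gene, with each point 1 library, the bar the group mean and the whiskers 1 SD (n = 3). PIK3R1 lay at 21.4 to 23.2 CPM in KO and 42.5 to 45.5 CPM in NT libraries, and PIK3CG and PIK3CB showed little or no gap between the groups.

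Further down the route most genes did not pass. Of the AKT, mTOR and phosphatase list 2 of 31 tested members were higher and 3 lower (median log2 fold change -0.04), against 1 higher and 5 lower in replicates 2 and 3 alone. Over all genes, replicates 2 and 3 alone called 1262 higher and 2020 lower. Calls higher in KO were 38.45% of calls there, against 45.62% with all libraries. The list counts from replicates 2 and 3 below are to be read beside these shares. IRS2, an adaptor that carries insulin and IGF1 receptor signals to PI3K, had 2.35, 2.55 and 2.81 CPM in KO, against 5.03, 4.32 and 4.18 CPM in NT (-0.81 ± 0.13, edgeR adjusted p = 1.8e-04). GAB2, a docking protein that binds p85, had 30.9, 31.2 and 27.8 CPM in KO, against 50.7, 49.6 and 53.1 CPM in NT (-0.77 ± 0.08, edgeR adjusted p = 2.2e-06). Both adaptors were lower in every KO library. RICTOR, the defining subunit of mTORC2, was higher, with 54.8, 54.6 and 56.3 CPM in KO, against 43.4, 42.5 and 45.9 CPM in NT (0.33 ± 0.05, edgeR adjusted p = 1.2e-04). Among small GTPases and PI3K-linked adaptors 3 of 30 tested members were higher and 7 lower (median log2 fold change -0.02), with RRAS2, a RAS relative that activates PI3K, at -1.13, the membrane adaptor PAG1 at -0.67 and ITPKB, a kinase of soluble inositol trisphosphate, at 0.55 (edgeR adjusted p = 2.7e-04, 4.0e-04 and 8.6e-07).

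Over all genes the difference between KO and NT was broad and mostly small. With an adjusted p under 0.05, 3720 genes (21.4%) were called, 1697 higher (9.78%) and 2023 lower (11.7%) in KO, and 66.5% of them changed by less than 1.5-fold. At least 2-fold changes were called for 580 genes (3.34%), 363 higher (2.09%) and 217 lower (1.25%), of which 283 and 166 were protein-coding. The 2-fold changes were mostly in genes with few reads: the higher of the group means had a median of 1.57 CPM among the 2-fold higher genes and 2.34 CPM among the 2-fold lower ones, against 14.4 CPM over all genes tested. Only 170 of the 2-fold calls, 95 higher and 75 lower, reached 5 CPM in either group. The 3 KO and 3 NT libraries did not overlap for 3681 of the 3720 calls, against 38.8% of all genes tested.

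**Figure D2:**
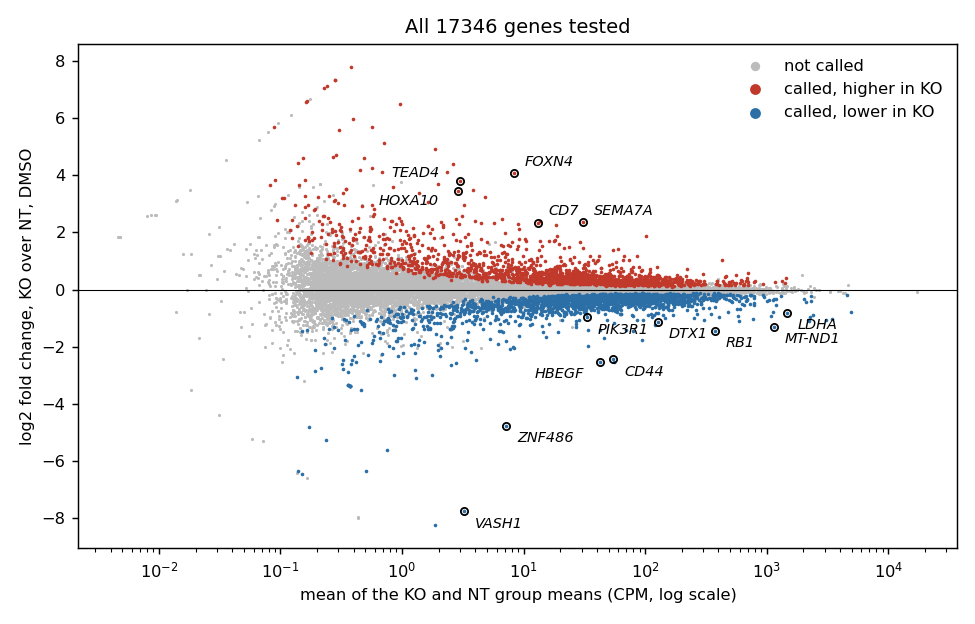
Log2 fold change of KO over NT under DMSO (vertical axis) against the mean of the group means in CPM (horizontal log axis) for all 17346 genes tested, with called genes in colour. The largest changes sit among genes of low level, and some genes described in the text are labelled.

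A few genes were near silent in one group and expressed in the other. Of those called, 8 had a mean below 1 CPM in NT and at least 5 CPM in KO libraries, and 2 had the reverse. FOXN4, a forkhead factor of retinal and spinal cord precursors, was at 15.99, 15.5 and 15.6 CPM in KO, against 1.04, 1.05 and 0.704 CPM in NT (4.08 ± 0.18, edgeR adjusted p = 4.8e-11). TEAD4, the DNA-binding partner of YAP, was at 4.73, 5.46 and 6.56 CPM in KO, against 0.492, 0.401 and 0.305 CPM in NT (3.80 ± 0.31, edgeR adjusted p = 1.2e-07). Every KO library lay at least several-fold above every NT library for both of these transcription factors. APBA2, a neuronal adaptor that binds the amyloid precursor protein, was at 7.62, 7.34 and 6.34 CPM in KO, against 0.739, 0.525 and 0.634 CPM in NT (3.48 ± 0.22, edgeR adjusted p = 4.6e-09). SLCO2A1, the prostaglandin transporter, was at 9.74, 8.65 and 7.59 CPM in KO, against 1.04, 0.957 and 0.774 CPM in NT (3.23 ± 0.42, edgeR adjusted p = 1.8e-05). The X-linked TCEAL3, of the elongation factor A-like family, was at 5.42, 5.84 and 6.002 CPM in KO, against 0.684, 0.741 and 0.798 CPM in NT (2.95 ± 0.16, edgeR adjusted p = 1.2e-09).

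ID2, which binds E-protein transcription factors and blocks their activity in lymphocyte development, was at 5.30, 5.29 and 5.42 CPM in KO, against 0.711, 1.02 and 0.962 CPM in NT, a 5.93-fold difference without overlap (2.57 ± 0.17, edgeR adjusted p = 9.0e-09). HOXA10, a homeobox gene of early blood progenitors that is high in a class of T-ALL, was at 6.13, 4.84 and 4.86 CPM in KO, against 0.520, 0.401 and 0.493 CPM in NT (3.47 ± 0.20, edgeR adjusted p = 1.6e-09). It stood alone in its cluster: of the 7 other tested HOXA genes 0 were called, and their log2 fold changes ran from -0.93 to -0.13. ENSG00000273590 (SMIM11B in GENCODE 29), the last of the 8 genes near silent in NT, is a near-identical copy of SMIM11, so that reads could be divided between them. It was high in 1 library only, with 13.3, 1.07 and 0.667 CPM in KO, against 0.0274, 0.370 and 0.305 CPM in NT. Its call (4.40 ± 1.51, edgeR adjusted p = 0.046) was lost without KO DMSO replicate 1 (1.89, adjusted p = 0.43) and also without NT DMSO replicate 1, 2 or 3 (adjusted p = 0.15, 0.098 and 0.11).

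In the other direction, VASH1, a tubulin carboxypeptidase also known as an inhibitor of blood vessel growth, was almost absent from the KO libraries. It was at 0.0573, 0 and 0.0278 CPM in KO, against 6.68, 5.92 and 6.85 CPM in NT, which is 3 KO reads against 728 NT reads over the 3 libraries each. The ratio of NT over KO was 245 (exact 95% interval 83.7 to 1190, counting error only), and the edgeR adjusted p was 6.7e-10. ZNF486, a KRAB zinc-finger repressor gene of chromosome 19, was at 0.315, 0.644 and 0.556 CPM in KO, against 12.7, 15.3 and 13.6 CPM in NT (-4.75 ± 0.19, edgeR adjusted p = 4.8e-11). Both genes were far below every NT library in each of the 3 KO libraries.

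For the 10 near-silent or newly expressed genes, 5 had exactly 1 promoter window in the RefSeq table for GRCh38.p14, and these are shown because the genes lie at the on-off end of the comparison. Each is the 250 bases before the RefSeq start of the gene, 5′ to 3′ on the gene's strand: chr12:109309285-109309534 (minus strand) for FOXN4, and, on the plus strand, chr2:8681806-8682055 for ID2, chrX:103607713-103607962 for TCEAL3, chr14:76761218-76761467 for VASH1 and chr19:20166964-20167213 for ZNF486. Capitals mark the letters of a searched motif, which are TGGGAA (the core bound by RBPJ, the DNA-binding partner of NOTCH) in FOXN4 and CACGTG (the E-box bound by MYC and MAX) in TCEAL3.
FOXN4: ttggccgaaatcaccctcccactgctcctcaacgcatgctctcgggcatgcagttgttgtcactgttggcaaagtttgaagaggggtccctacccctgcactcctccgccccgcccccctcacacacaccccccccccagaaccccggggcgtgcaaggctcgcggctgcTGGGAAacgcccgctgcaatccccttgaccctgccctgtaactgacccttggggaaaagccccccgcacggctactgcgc
ID2: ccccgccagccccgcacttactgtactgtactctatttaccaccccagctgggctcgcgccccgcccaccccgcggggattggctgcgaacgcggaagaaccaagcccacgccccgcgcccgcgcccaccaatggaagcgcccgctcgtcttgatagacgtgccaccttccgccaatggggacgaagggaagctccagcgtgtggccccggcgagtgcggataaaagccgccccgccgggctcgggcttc
TCEAL3: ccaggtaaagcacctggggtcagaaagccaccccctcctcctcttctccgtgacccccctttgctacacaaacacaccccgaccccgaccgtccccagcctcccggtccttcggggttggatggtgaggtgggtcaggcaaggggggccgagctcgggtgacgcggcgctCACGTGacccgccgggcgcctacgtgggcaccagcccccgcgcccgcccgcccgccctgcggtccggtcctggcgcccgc
VASH1: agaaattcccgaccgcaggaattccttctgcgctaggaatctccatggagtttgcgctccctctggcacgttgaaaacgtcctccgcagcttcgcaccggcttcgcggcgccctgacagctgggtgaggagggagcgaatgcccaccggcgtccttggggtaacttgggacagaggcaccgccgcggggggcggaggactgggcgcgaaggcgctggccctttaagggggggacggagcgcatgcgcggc
ZNF486: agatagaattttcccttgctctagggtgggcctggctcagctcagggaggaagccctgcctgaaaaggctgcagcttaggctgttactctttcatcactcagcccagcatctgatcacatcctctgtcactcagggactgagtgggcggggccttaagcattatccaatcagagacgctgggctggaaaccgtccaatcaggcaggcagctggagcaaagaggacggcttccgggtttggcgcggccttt
The windows of FOXN4, ID2, TCEAL3, VASH1 and ZNF486 held 14, 29, 25, 26 and 7 CpG dinucleotides, beside a median of 19 over all 16723 windows of tested genes.

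Over whole groups the windows were read for GTAAACA (the FOXO site), TGGGAA and CACGTG on both strands. GTAAACA stood in 1.41% of the 355 windows of the 2-fold higher genes and 2.78% of the 216 windows of the 2-fold lower genes, against 2.25% of all windows. TGGGAA stood in 19.2% and 15.7%, against 19.5% of all windows, and CACGTG in 5.92% and 8.80%, against 8.03%. Some genes have several windows that overlap, so these shares are descriptions only. The median CpG count was 11 in windows of the 2-fold higher genes and 14 in those of the 2-fold lower genes, against 19 over all windows.

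The remaining large rises included immune surface and signalling genes. CD7, a glycoprotein of T cells and NK cells and a marker of nearly all T-ALL, was at 19.8, 22.8 and 23.04 CPM in KO, against 3.53, 4.94 and 4.48 CPM in NT, a 5.07-fold difference (2.34 ± 0.16, edgeR adjusted p = 1.1e-08). In bulk RNA more cells with a transcript and more transcript per cell cannot be told apart. IL1R1, the signalling receptor of interleukin-1, was at 8.80, 9.96 and 10.1 CPM in KO, against 1.97, 1.82 and 1.95 CPM in NT (2.33 ± 0.20, edgeR adjusted p = 1.7e-07). SEMA7A, a membrane semaphorin that binds integrins, was at 53.7, 50.8 and 49.6 CPM in KO, against 10.8, 9.47 and 9.76 CPM in NT (2.36 ± 0.12, edgeR adjusted p = 3.3e-10). All 3 were higher in every KO library, which was a condition for entry to the 15 largest rises. ALOX5AP, needed for leukotriene synthesis (2.39 ± 0.15), the interferon-induced SLFN5 (2.30 ± 0.11), the zinc-finger factor ZNF219 (2.47 ± 0.14) and the membrane protein TMEM132D (2.41 ± 0.13) completed the 15 largest rises among protein-coding genes that reached 5 CPM, all with an edgeR adjusted p of 6.5e-09 or less.

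The large falls included growth factor and adhesion genes. HBEGF, a ligand of the EGF receptor, was at 13.7, 12.4 and 11.7 CPM in KO, against 76.5, 69.9 and 70.6 CPM in NT (-2.52 ± 0.08, edgeR adjusted p = 1.6e-12). CD44, the hyaluronan receptor of migrating lymphocytes, was at 16.7, 17 and 17.5 CPM in KO, against 90.04, 94.3 and 93.7 CPM in NT (-2.44 ± 0.11, edgeR adjusted p = 1.2e-10). GPA33, a surface antigen of the immunoglobulin family, was at 45.96, 43.6 and 40.1 CPM in KO, against 147, 145 and 143 CPM in NT (-1.75 ± 0.07, edgeR adjusted p = 4.8e-11). In these genes the lowest NT library was more than 3 times the highest KO library. ATP11A, a phospholipid flippase of the plasma membrane, was at 14.8, 16.1 and 17.8 CPM in KO, against 90.1, 96.7 and 94.1 CPM in NT (-2.53 ± 0.14, edgeR adjusted p = 6.7e-10).

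AIG1, a hydrolase of branched fatty acid esters, was at 12.8, 13.4 and 15.1 CPM in KO, against 53.7, 51.6 and 56.2 CPM in NT (-1.97 ± 0.08, edgeR adjusted p = 4.8e-11). RAB27A, a GTPase that docks secretory granules, was at 2.44, 3.50 and 2.92 CPM in KO, against 12.4, 13.02 and 12.04 CPM in NT (-2.07 ± 0.13, edgeR adjusted p = 4.3e-09). Libraries without overlap were a condition for entry to the 15 largest rises and falls. The other members of the 15 largest falls were the cytokine TGFB3 (-2.19 ± 0.20), the homeobox gene MEOX1 (-2.04 ± 0.20), the giant scaffold AHNAK (-2.03 ± 0.29), the kinase MAP3K21 (-2.01 ± 0.14), the thrombin receptor family member F2RL2 (-1.89 ± 0.13), the scaffold TAMALIN (-1.79 ± 0.13) and the adhesion molecule SDK2 (-1.75 ± 0.35). Their edgeR adjusted p ran from 4.8e-11 for AIG1 to 0.0012 for SDK2.

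**Figure D3:**
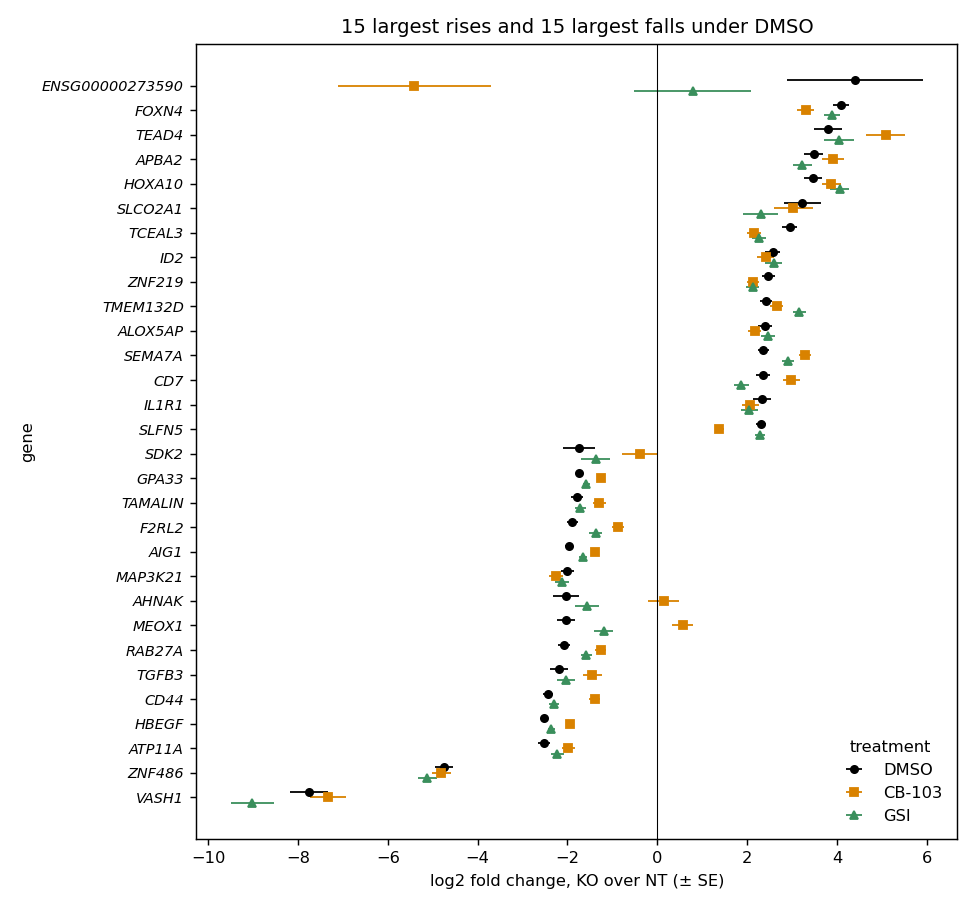
Log2 fold change of KO over NT for the 15 largest rises and 15 largest falls under DMSO, with points for DMSO, CB-103 and GSI and bars of 1 standard error from the fit. Most genes keep their side of 0 in all 3 treatments, while ENSG00000273590, MEOX1 and AHNAK change side with CB-103. There AHNAK lies near 0 at 0.14 ± 0.34, and SDK2 keeps its side at -0.39 ± 0.40. The values of VASH1 and ENSG00000273590 rest on few reads in a group and depend on the fit.

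Neighbouring genes moved together in 5 stretches of the genome. Tested genes were read in blocks of 50 along each chromosome, and runs of at least 2 blocks with a median log2 fold change of 0.2 or more in size were joined (27 of 336 blocks; coordinates in hg38). The end of the long arm of chromosome 1 (chr1:206767602-248919946, 242 genes, median 0.27) and most of the tested part of chromosome 13 (chr13:19422877-77327050, 200 genes, median 0.38) lay higher in KO. Stretches of chromosome 6 (chr6:98834592-157678146, 200 genes, median -0.35), chromosome 11 (chr11:6612763-57652790, 200 genes, median -0.37) and chromosome 14 (chr14:22893206-106811131, 558 genes, median -0.38) lay lower. The rest of chromosomes 1, 6, 11, 13 and 14 had medians of 0.03, -0.02, -0.11, 0.002 and 0.05, and block medians outside the stretches ran from -0.17 to 0.19.

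The stretches were chosen from this contrast, so their own counts are given as a description. They hold 1400 genes (8.07% of those tested) and 739 calls (19.9% of all calls), 107 higher and 5 lower on chromosome 1, 102 and 7 on chromosome 13, 6 and 100 on chromosome 6, 5 and 106 on chromosome 11, and 18 and 283 on chromosome 14. Between the libraries of a group they were steady: genes of the chromosome 14 stretch took 2.02%, 1.97% and 1.98% of the scaled counts in the KO libraries, against 2.66%, 2.62% and 2.60% in the NT libraries. The inhibitor-treated libraries, which did not choose them, gave medians of 0.24, -0.36, -0.34, 0.36 and -0.36 with CB-103 and 0.30, -0.28, -0.37, 0.39 and -0.32 with GSI for the stretches of chromosomes 1, 6, 11, 13 and 14. Outside them 18.7% of genes were called, 1459 higher and 1522 lower. DNA was not measured, and the cause of these shifts was not tested.

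**Figure D4:**
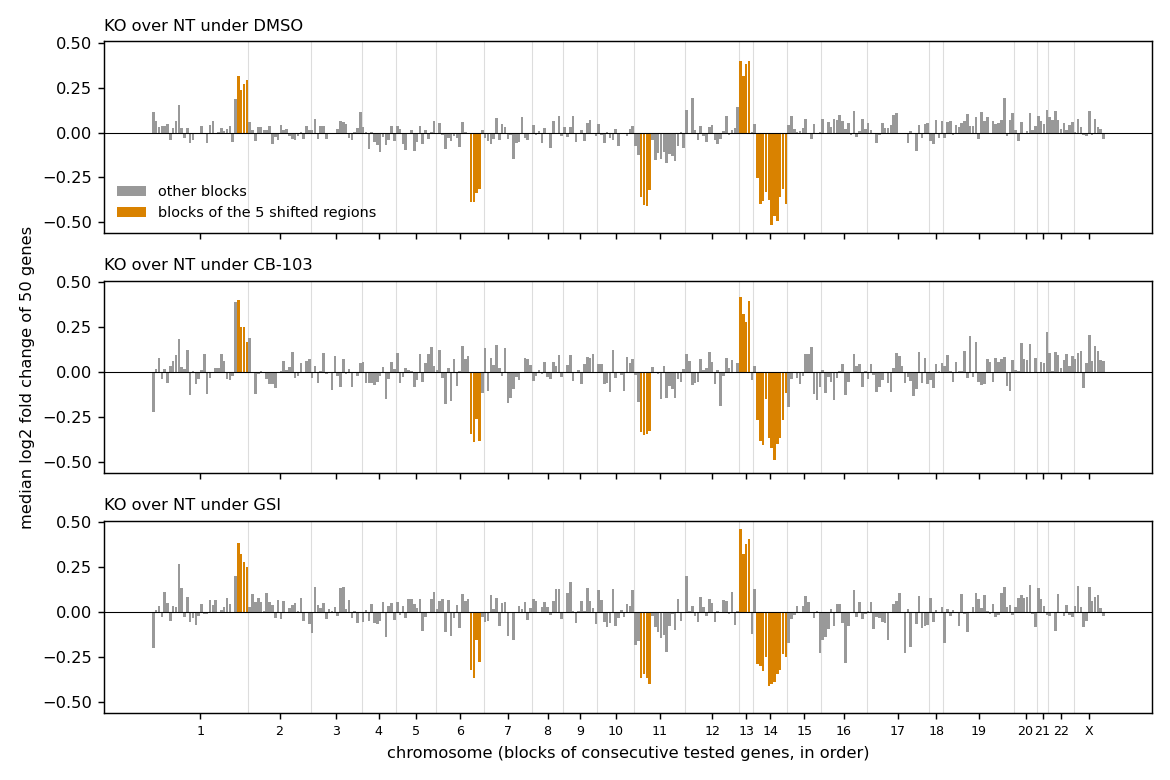
Median log2 fold change of KO over NT in blocks of 50 neighbouring tested genes, ordered along the chromosomes, in 1 panel each for DMSO, CB-103 and GSI, with the 5 stretches in colour. Over the 3 panels the medians of the stretches run from -0.38 to -0.28 for chromosomes 6, 11 and 14 and from 0.24 to 0.39 for chromosomes 1 and 13.

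VASH1, TGFB3, CD44 and AIG1 lie in the lower stretches and fell by much more than the stretch medians, while ALOX5AP lies in the higher stretch of chromosome 13. MAP3K21 lies in the higher stretch of chromosome 1 and fell. Several list results below fall wholly within the stretches, and this is given beside them.

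RB1, the retinoblastoma tumour suppressor, was lower in KO in the gene table but not in the sum of its transcript reads. In the deposited gene table it was at 209.5, 196 and 205 CPM in KO, against 572, 532 and 546 CPM in NT (-1.44 ± 0.06, edgeR adjusted p = 4.8e-11), but the log2 fold change of the transcript sum was -0.06 and did not pass (edgeR adjusted p = 0.48). The full-length transcript ENST00000267163 was at 96.5, 92.6 and 94.7 TPM in the KO libraries, against 85.8, 84.6 and 80.5 TPM in the NT libraries. ENST00000643064, annotated with 2 exons and 329 nt, was at 0.291, 0.587 and 1.02 TPM in the KO libraries, against 163.8, 152.3 and 157.8 TPM in the NT libraries. The short transcript joins an exon inside RB1 (chr13:48381250-48381443) to one beyond its end (chr13:48599302-48599436) across an intron of 217858 nt. Its junction, 30 bases on each side with the second exon in capitals, is shown because it joins the exons that make this transcript (GENCODE 29).
ENST00000643064: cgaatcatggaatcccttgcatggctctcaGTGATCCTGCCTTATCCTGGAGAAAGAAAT
In the whole series the short transcript stayed at or below 1.02 TPM in all 9 KO libraries and at or above 34.6 TPM in all 9 NT libraries. RCBTB2, a gene related to RCC1 that lies within that intron on the opposite strand and was looked at for that reason, was at 5.90, 7.03 and 9.34 CPM in KO, against 20.1, 24.9 and 25.2 CPM in NT (-1.66 ± 0.16, edgeR adjusted p = 5.7e-07), within a stretch of chromosome 13 whose median was higher in KO. Few called genes differed like RB1 between the gene table and the transcript sums: of 3714 called genes with a transcript sum, 52 moved by more than 1.5 times when the sums were used, and 6 of them reached 5 CPM. NOS3, the endothelial nitric oxide synthase, named after its values were seen, was another, at -0.70 (edgeR adjusted p = 0.011) in the gene table and -0.04 (adjusted p = 0.87) in the sums, and its call in the gene table was lost without KO DMSO replicate 2 (-0.56, adjusted p = 0.06).

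Genes that FOXO factors control moved in both directions. Of the FOXO list 5 of 26 tested members were higher and 8 lower (median log2 fold change -0.13), beside 9.78% higher and 11.7% lower among all genes tested. KLF2, the quiescence and trafficking factor of T cells and a FOXO1 target, was low in all libraries, at 0.344, 0.334 and 0.278 CPM in KO, against 2.76, 1.85 and 2.06 CPM in NT (-2.79 ± 0.45, edgeR adjusted p = 1.8e-04). TNFSF10, the death ligand TRAIL, was at 203, 192 and 199 CPM in KO, against 429, 395 and 409 CPM in NT (-1.05 ± 0.05, edgeR adjusted p = 3.7e-10). Both stood lower in all KO libraries. SESN3, a stress protein that restrains mTORC1, was at 12.3, 12.04 and 11.7 CPM in KO, against 5.94, 6.54 and 6.13 CPM in NT (0.95 ± 0.09, edgeR adjusted p = 9.1e-07). BCL6, a transcriptional repressor, was higher at a low level, at 1.83, 1.65 and 1.53 CPM in KO, against 0.930, 1.02 and 0.634 CPM in NT (0.96 ± 0.22, edgeR adjusted p = 0.0037). FOXO1 itself was called higher (0.39 ± 0.10, edgeR adjusted p = 0.0087), but it lies in the chromosome 13 stretch, and its call was lost without KO DMSO replicate 3 (0.28, adjusted p = 0.079) and with transcript sums (0.23, adjusted p = 0.055). CDKN1B, a cell cycle inhibitor that FOXO factors induce, did not pass (-0.09, edgeR adjusted p = 0.29).

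NOTCH genes also moved in both directions. Among targets of NOTCH in T-ALL 3 of 15 tested members were higher and 3 lower (median log2 fold change -0.14), against 2 higher and 6 lower in replicates 2 and 3 alone. Over all genes 9.78% were higher and 11.7% lower with all libraries, and those replicates alone called 1262 genes higher and 2020 lower. Among components of the pathway 2 of 24 tested members were higher and 7 lower (median log2 fold change -0.03). DTX1, a ubiquitin ligase gene induced by NOTCH, was at 79.5, 78.98 and 82.98 CPM in KO, against 159.5, 181 and 184 CPM in NT (-1.12 ± 0.07, edgeR adjusted p = 1.0e-08). HEYL, a repressor induced by NOTCH, was at 45.4, 44.4 and 42.7 CPM in KO, against 28.9, 29.7 and 29.1 CPM in NT (0.60 ± 0.07, edgeR adjusted p = 3.0e-06). These targets moved in opposite directions without overlap of the libraries. HES1 at -0.21 and HES4 at 0.17 did not pass with all libraries (edgeR adjusted p = 0.079 and 0.12), and without KO DMSO replicate 1 HES1 was called at -0.31 (adjusted p = 0.014).

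The receptor NOTCH1 was at 387, 398 and 413 CPM in KO, against 439, 517 and 499 CPM in NT (-0.28 ± 0.06, edgeR adjusted p = 0.0015), and with transcript sums it was not called (-0.19, adjusted p = 0.15). NOTCH3 was higher (0.60 ± 0.15, edgeR adjusted p = 0.0083), at 0.52 and an adjusted p of 0.058 in replicates 2 and 3 alone, and NOTCH2 was at 21.5, 21.8 and 22.4 CPM in KO, against 13.2, 12.8 and 16.97 CPM in NT (0.61 ± 0.11, edgeR adjusted p = 5.8e-04). JAG1, a ligand of NOTCH receptors, was at 4.21, 3.29 and 4.14 CPM in KO, against 9.17, 8.98 and 8.61 CPM in NT (-1.20 ± 0.18, edgeR adjusted p = 1.1e-04). The ligand gene was lower in all KO libraries, and NUMB, an inhibitor of NOTCH that lies in the chromosome 14 stretch, was lower as well (-0.66 ± 0.08, edgeR adjusted p = 6.5e-06).

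MYC, which NOTCH drives in T-ALL, was at 122, 104 and 104 CPM in KO, against 124, 127 and 116 CPM in NT, with overlapping groups (-0.16 ± 0.06, edgeR adjusted p = 0.093). Without KO DMSO replicate 1, which had the highest MYC of the KO libraries, it was called at -0.24 (adjusted p = 0.0079). Its paralogue MYCN was at 36.8, 31.7 and 33.1 CPM in KO, against 73.7, 74.9 and 81.9 CPM in NT (-1.18 ± 0.06, edgeR adjusted p = 6.7e-10). MXD4, a partner of MAX that opposes MYC, was at 6.45, 6.08 and 5.72 CPM in KO, against 4.10, 4.41 and 3.61 CPM in NT (0.59 ± 0.10, edgeR adjusted p = 2.2e-04). In the MYC and MAX-MXD network 3 of 15 tested members were higher and 2 lower (median log2 fold change 0.09), against 2 higher and 4 lower in replicates 2 and 3 alone. Of the gene groups that MYC is known to raise, in ribosome biogenesis 3 of 31 tested members were higher and 2 lower (median log2 fold change -0.02), and in nucleotide and polyamine synthesis 2 of 21 tested members were higher and 6 lower (median log2 fold change -0.11). MTHFD1, a folate enzyme of purine synthesis (-0.55 ± 0.05), and AMD1, an enzyme of polyamine synthesis (-0.33 ± 0.05), led the second list, and both lie in lower stretches.

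Genes of T-cell identity were called more often than all genes tested, of which 9.78% were higher and 11.7% lower. In T-lineage commitment factors 10 of 22 tested members were higher and 5 lower (median log2 fold change 0.27), and the count was 6 higher and 6 lower in replicates 2 and 3 alone. The 6 of them at least 2-fold higher include ID2, and 1, KLF2, was at least 2-fold lower. Among T-cell receptor and thymocyte genes 7 of 30 tested members were higher and 11 lower (median log2 fold change -0.09). CD27, a co-stimulatory receptor, was at 1.46, 1.81 and 1.61 CPM in KO, against 0.739, 0.463 and 0.376 CPM in NT (1.63 ± 0.24, edgeR adjusted p = 8.8e-05). It was higher, at a low level, in every KO library, while signalling chains of the T-cell receptor itself were slightly lower. CD247, the zeta chain, was at 98.6, 97 and 91.6 CPM in KO, against 132, 127 and 124 CPM in NT (-0.42 ± 0.05, edgeR adjusted p = 5.0e-06). CD3G, the gamma chain, was at 85.2, 80.98 and 87.01 CPM in KO, against 108, 109 and 106 CPM in NT (-0.35 ± 0.05, edgeR adjusted p = 5.9e-05).

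Of the transcription factors that drive T-ALL 2 of 15 tested members were higher and 4 lower (median log2 fold change -0.13), and all 4 that were lower lie in lower stretches. In replicates 2 and 3 alone the count was 1 higher and 8 lower, more falls than the 4 members tested with all libraries that lie in the stretches. LMO1, an oncogenic LIM protein, was at 119.6, 118 and 123 CPM in KO, against 195, 199.8 and 189.7 CPM in NT (-0.70 ± 0.06, edgeR adjusted p = 1.5e-07). NKX2-1, a homeobox factor, was at 20.2, 15.9 and 16.9 CPM in KO, against 31.2, 29.8 and 29.7 CPM in NT (-0.78 ± 0.10, edgeR adjusted p = 1.2e-05). BCL11B, a commitment factor and tumour suppressor of the T lineage, was at 134, 138 and 139 CPM in KO, against 171, 179.9 and 182 CPM in NT (-0.38 ± 0.06, edgeR adjusted p = 1.0e-04). Over all clustered HOX genes 1 of 16 tested members was higher and 1 lower (median log2 fold change -0.17). Among B-cell markers IGLL1, the surrogate light chain gene that early lymphoid cells also express, was at 16.6, 20.9 and 20.98 CPM in KO, against 7.61, 9.04 and 8.94 CPM in NT (1.19 ± 0.12, edgeR adjusted p = 1.2e-06). NCAM1, an NK-cell marker, was at 16.2, 11.3 and 12.3 CPM in KO, against 3.48, 7.31 and 3.10 CPM in NT (1.53 ± 0.23, edgeR adjusted p = 9.5e-05), while 9 of the 12 NK-cell markers lay below 1 CPM in both groups.

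Adhesion and migration genes were higher more often than all genes: 14 of 31 tested members were higher and 7 lower (median log2 fold change 0.31), and 13 higher and 7 lower in replicates 2 and 3 alone. LGALS1, the secreted lectin galectin-1, was at 8.71, 10.4 and 10.9 CPM in KO, against 2.93, 4.13 and 3.47 CPM in NT (1.52 ± 0.18, edgeR adjusted p = 1.0e-05). CCR4, a chemokine receptor of skin-homing T cells, was at 2.98, 2.91 and 3.56 CPM in KO, against 1.64, 1.11 and 1.76 CPM in NT (1.06 ± 0.18, edgeR adjusted p = 3.0e-04). CD44 and S100A10, the annexin A2 partner (-1.81 ± 0.32, edgeR adjusted p = 4.7e-04), went the other way. In the list of the actin cytoskeleton and its regulators 5 of 34 tested members were higher and 9 lower (median log2 fold change -0.01), against 5 higher and 12 lower in replicates 2 and 3 alone. FLNA, the actin crosslinker filamin A, was at 1007, 949 and 949.8 CPM in KO, against 1364, 1395 and 1481 CPM in NT (-0.55 ± 0.06, edgeR adjusted p = 2.4e-06). ACTN1, alpha-actinin 1, fell as well within the chromosome 14 stretch (-0.83 ± 0.06, edgeR adjusted p = 4.5e-08). CORO1B, a coronin that regulates actin branching, was higher (0.69 ± 0.12, edgeR adjusted p = 4.3e-04).

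Cytokine receptors and signalling feedback genes contained more rises than falls, beside 9.78% higher and 11.7% lower among all genes tested. In the cytokine receptor and JAK-STAT list 7 of 26 tested members were higher and 3 lower (median log2 fold change 0.06). IL6R, the interleukin-6 receptor, was at 9.26, 9.13 and 10.9 CPM in KO, against 4.41, 3.61 and 3.78 CPM in NT (1.31 ± 0.18, edgeR adjusted p = 4.6e-05). IL2RB, the beta chain shared by the interleukin-2 and interleukin-15 receptors, was at 9.40, 9.27 and 10.2 CPM in KO, against 5.64, 5.46 and 4.58 CPM in NT (0.89 ± 0.12, edgeR adjusted p = 3.5e-05). The libraries of the groups did not overlap for either receptor. IL7R stayed below 1 CPM in all 6 libraries and was not called (edgeR adjusted p = 0.9). Among MAPK feedback and immediate early genes 7 of 23 tested members were higher and 3 lower (median log2 fold change 0.23), against 5 higher and 4 lower in replicates 2 and 3 alone. ETV5, an ETS factor induced by ERK, was at 5.82, 5.27 and 5.20 CPM in KO, against 1.67, 2.56 and 2.04 CPM in NT (1.38 ± 0.14, edgeR adjusted p = 1.8e-06). DUSP10, a phosphatase of p38 and JNK in the chromosome 1 stretch, was at 7.99, 6.70 and 7.72 CPM in KO, against 3.67, 3.61 and 2.79 CPM in NT (1.16 ± 0.14, edgeR adjusted p = 1.2e-05).

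In the NF-kB and chemokine list 4 of 17 tested members were higher and 3 lower (median log2 fold change 0.22). ICAM1, the ligand of the integrin LFA-1, was at 4.67, 6.75 and 5.06 CPM in KO, against 1.86, 0.988 and 1.43 CPM in NT (1.94 ± 0.19, edgeR adjusted p = 9.3e-07). LTB, lymphotoxin beta, was at 3.67, 3.50 and 4.06 CPM in KO, against 7.96, 8.39 and 7.37 CPM in NT (-1.08 ± 0.13, edgeR adjusted p = 1.1e-05). In the interferon and MHC class I list 2 of 30 tested members were higher and 5 lower (median log2 fold change -0.11), beside 9.78% higher and 11.7% lower among all genes tested. OAS1, an interferon-induced sensor of double-stranded RNA, was at 5.50, 3.74 and 3.92 CPM in KO, against 1.83, 1.82 and 2.09 CPM in NT (1.19 ± 0.15, edgeR adjusted p = 1.5e-05). HLA-B and HLA-C, which present peptides on class I molecules and share sequence that can divide reads between them, were lower (-0.50 ± 0.12 and -0.40 ± 0.07, edgeR adjusted p = 0.0056 and 4.0e-04). Of the MHC class II list 1 of 7 tested members was higher and 1 lower (median log2 fold change 0.05).

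Mitochondrially encoded RNA had the largest share of called members among the lists read here. Of 13 such genes, 0 were higher and 12 lower in KO, with a median log2 fold change of -0.95. All genes of the mitochondrial genome, ribosomal and transfer RNA included, made up 1.88%, 1.81% and 1.69% of counts in the KO libraries. In the NT libraries they made up 3.22%, 3.09% and 3.72%. This share varied widely in the NT GSI libraries, at 5.51%, 1.90% and 3.95%, against 2.40%, 2.40% and 2.57% in the KO GSI libraries. MT-ND1, a complex I subunit, was at 716, 662 and 622 CPM in KO, against 1646, 1462 and 1801 CPM in NT (-1.30 ± 0.27, edgeR adjusted p = 0.0017). MT-ND4, another, was at 2204, 1928 and 1798 CPM in KO, against 4186, 3772 and 4443 CPM in NT (-1.06 ± 0.26, edgeR adjusted p = 0.0068). The nuclear genes of the same respiratory chain stood near 0: 1 of 30 tested members was higher and 3 lower (median log2 fold change -0.002). For maintenance and transcription of mitochondrial DNA 0 of 22 tested members were higher and 3 lower (median log2 fold change -0.03), where SLIRP, which stabilises mitochondrial messenger RNA, lay in the chromosome 14 stretch (-0.57 ± 0.07, edgeR adjusted p = 1.2e-05). In replicates 2 and 3 alone the count of the 13 genes was again 0 higher and 12 lower. With CB-103 it was 0 higher and 12 lower, but with GSI only 4 were lower and 0 higher. Over all genes 37.0% were called with CB-103 and 33.8% with GSI.

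Glycolysis genes that passed were all lower: 0 of 24 tested members were higher and 6 lower (median log2 fold change -0.09). Among all genes tested 9.78% were higher and 11.7% lower. LDHA, which makes lactate, was at 1202, 984 and 996 CPM in KO, against 2069, 1816 and 1734 CPM in NT and lies in the chromosome 11 stretch (-0.82 ± 0.09, edgeR adjusted p = 2.4e-06). ALDOC, an aldolase, was at 14.2, 12.3 and 11.5 CPM in KO, against 20.9, 23.2 and 19.9 CPM in NT (-0.75 ± 0.11, edgeR adjusted p = 9.9e-05). HK2, a hexokinase that AKT signalling raises in other settings, was at 43.9, 36.9 and 39.7 CPM in KO, against 50.8, 50.9 and 49.5 CPM in NT (-0.33 ± 0.08, edgeR adjusted p = 0.0062). SLC16A1, a lactate transporter, was lower too (-0.34 ± 0.06, edgeR adjusted p = 5.9e-04). In cholesterol synthesis 5 of 22 tested members were higher and 3 lower (median log2 fold change 0.04), against 3 higher and 4 lower in replicates 2 and 3 alone, with the sterol carrier STARD4 at 0.39 and PMVK, a kinase of the mevalonate route, at -0.35. In fatty acid synthesis 3 of 11 tested members were higher and 3 lower (median log2 fold change 0.02), with the acyl-CoA synthetase ACSL1 at 1.14 ± 0.17 and the desaturase FADS2 at -0.34 ± 0.07. The amino acid response had 3 higher and 7 lower of 28 (median -0.05). PYCR1, an enzyme of proline synthesis, was at 11.2, 15.3 and 13.5 CPM in KO, against 21.3, 21.9 and 25.6 CPM in NT (-0.78 ± 0.11, edgeR adjusted p = 4.6e-05).

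Lists of protein synthesis and turnover differed in how many of their calls lay in the stretches. Of cytosolic ribosomal proteins 0 of 36 tested members were higher and 1 lower (median log2 fold change -0.0004), the 1 being RPS13 of the chromosome 11 stretch (-0.50 ± 0.06, edgeR adjusted p = 1.6e-05). Of proteasome subunits 0 of 31 tested members were higher and 7 lower (median log2 fold change 0.01), and all 7 that were lower, such as the ATPases PSMC3 (-0.38 ± 0.05) and PSMC1 (-0.37 ± 0.06), lie in the stretches of chromosomes 11 and 14. Among translation factors 2 of 30 tested members were higher and 4 lower (median log2 fold change -0.06), and EIF2S1, the alpha subunit of eIF2, again belongs to the chromosome 14 stretch (-0.56 ± 0.08). Among splicing factors 2 of 35 tested members were higher and 2 lower (median log2 fold change -0.04). In replicates 2 and 3 alone the counts were 1 higher and 6 lower for translation and 1 higher and 4 lower for splicing. Among heat shock and chaperone genes 1 of 23 tested members was higher and 6 lower (median log2 fold change -0.04). HSP90AA1, a cytosolic chaperone at -0.42, was the only 1 of the 6 that lies in a stretch, and outside the stretches 5 of 21 were lower, beside 9.54% of all genes there. Among lysosome and autophagy genes 8 of 30 tested members were higher and 3 lower (median log2 fold change 0.11). All 8 that were higher lie outside the stretches, 8 of 28 tested there, beside 9.15% of all genes there. TFEB, the master factor of lysosome genes, was at 2.09, 3.50 and 2.58 CPM in KO, against 0.520, 0.864 and 0.704 CPM in NT (1.97 ± 0.28, edgeR adjusted p = 5.4e-05). ATG5, needed for autophagosome formation and placed in the chromosome 6 stretch, was at 10.4, 10.2 and 9.95 CPM in KO, against 20.8, 19.2 and 20.9 CPM in NT (-0.99 ± 0.10, edgeR adjusted p = 1.8e-06). In the AHR and NRF2 list 4 of 13 tested members were higher and 1 lower (median log2 fold change 0.21), with the peroxidase PRDX1 at -0.39 and the thioredoxin reductase TXNRD1 at 0.30. In DNA methylation and PRC2 3 of 26 tested members were higher and 4 lower (median log2 fold change -0.07), against 1 higher and 6 lower in replicates 2 and 3 alone, with the 5-methylcytosine oxidase TET1 at -0.52 ± 0.06.

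Cell cycle genes of the G1/S and replication list were higher more often than all genes: 10 of 29 tested members were higher and 3 lower (median log2 fold change 0.15). E2F2, an activator of S-phase genes, was at 189.9, 179.6 and 180.5 CPM in KO, against 136, 135 and 131 CPM in NT (0.45 ± 0.06, edgeR adjusted p = 2.3e-05). POLA1, the catalytic subunit of DNA polymerase alpha, was higher (0.28 ± 0.05, edgeR adjusted p = 8.1e-04). In the G2/M list 4 of 23 tested members were higher and 3 lower (median log2 fold change 0.04). Among G1 cyclins and their inhibitors 4 of 12 tested members were higher and 2 lower (median log2 fold change 0.07), against 2 higher and 2 lower in replicates 2 and 3 alone, where the RB1 value rests on the short transcript described above. CCND3, the cyclin D that developing T cells depend on, was at 677, 609 and 621 CPM in KO, against 919.9, 935 and 925 CPM in NT (-0.54 ± 0.07, edgeR adjusted p = 2.5e-05). CDKN1A, the inhibitor p21 and a p53 and FOXO target, was at 1.29, 1.19 and 1.17 CPM in KO, against 0.465, 0.370 and 0.235 CPM in NT (1.77 ± 0.28, edgeR adjusted p = 1.3e-04). The cyclin fell and the inhibitor rose without overlap of the libraries, the inhibitor at a level near 1 CPM.

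Among BCL2 family genes 3 of 14 tested members were higher and 0 lower (median log2 fold change 0.22). Over all genes tested 21.4% were called, 9.78% higher and 11.7% lower, so the share called in this family was no larger. The 3 that passed encode pro-apoptotic members. BMF, a BH3-only protein, was at 30.3, 23.7 and 29.3 CPM in KO, against 18.7, 19.8 and 17.9 CPM in NT (0.56 ± 0.09, edgeR adjusted p = 1.6e-04). BID, which links death receptors to mitochondria, was at 56.96, 51.3 and 56.6 CPM in KO, against 45.4, 39.04 and 38.9 CPM in NT (0.42 ± 0.07, edgeR adjusted p = 4.0e-04). Of p53 targets 5 of 19 tested members were higher and 3 lower (median log2 fold change 0.13), against 4 higher and 5 lower in replicates 2 and 3 alone. TNFRSF10B, a receptor of TRAIL, was at 33.8, 35.7 and 34.1 CPM in KO, against 24.1, 20.8 and 21.9 CPM in NT (0.63 ± 0.08, edgeR adjusted p = 1.1e-05). SESN1, a stress protein of the chromosome 6 stretch, was lower (-0.67 ± 0.08, edgeR adjusted p = 1.0e-05).

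**Figure D5:**
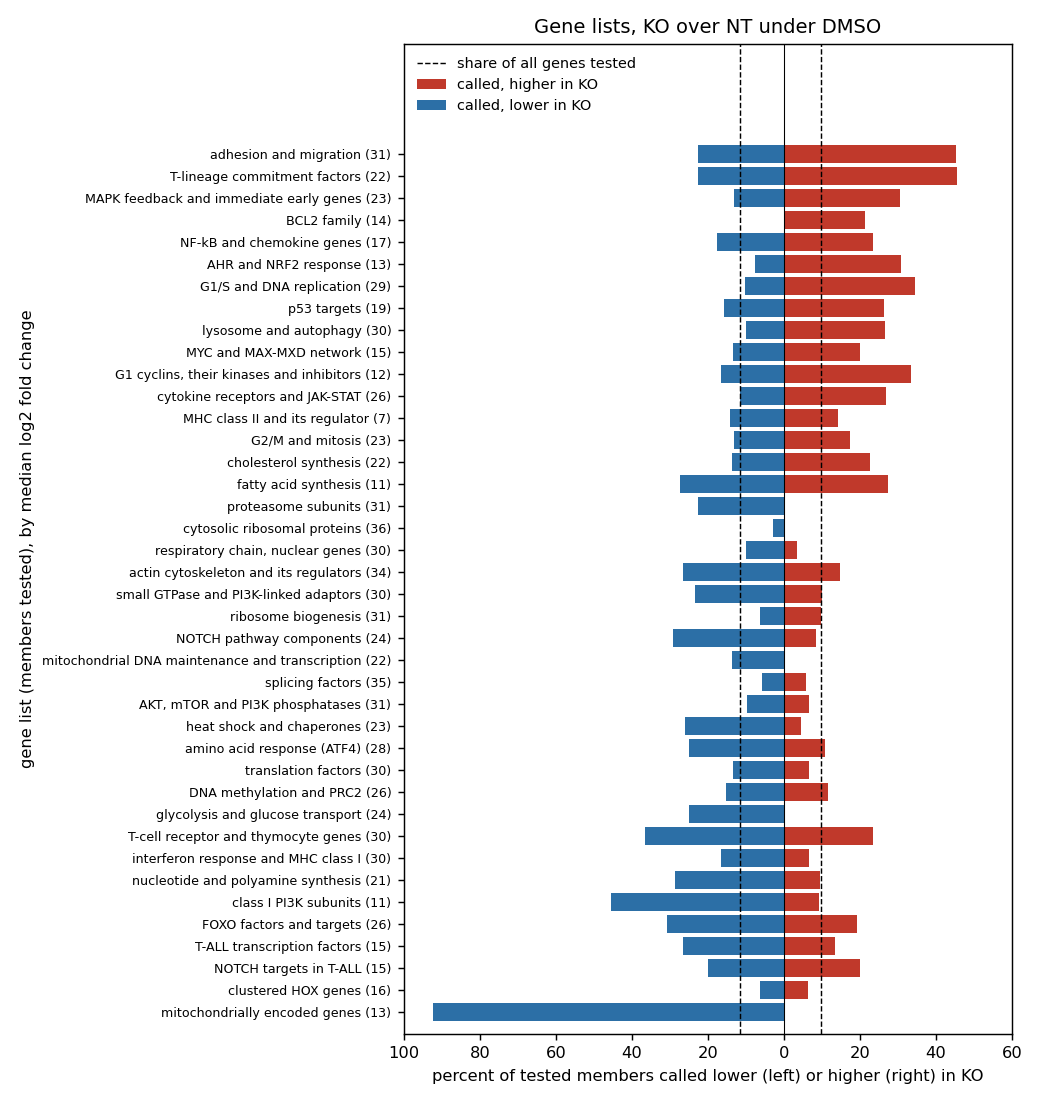
Percent of the tested members of each gene list called lower (left of 0) or higher (right of 0) in KO under DMSO, ordered by median log2 fold change, with dashed lines at the percentages of all genes tested, 11.7% lower and 9.78% higher. Mitochondrially encoded genes stand at 12 of 13 lower, and adhesion and T-lineage factors reach the largest shares higher.

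The same genotype comparison was available in cells treated with CB-103 and with GSI, from other libraries than the DMSO ones. Of 17346 genes, 6412 (37.0%) were called with CB-103, 926 (5.34%) of them at least 2-fold, and 5861 (33.8%) with GSI, 797 (4.59%) at least 2-fold. Of the 3720 DMSO calls, 2265 were called the same way with CB-103, which is 60.9% of the DMSO calls and 35.3% of the CB-103 calls, and 173 the opposite way. With GSI 2554 were called the same way, which is 68.7% of the DMSO calls and 43.6% of the GSI calls, and 28 the opposite way. Of the 580 genes called at least 2-fold under DMSO, 342 (59.0%) were called the same way under both inhibitors.

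The difference between genotype effects was tested itself. The effect under DMSO differed from that under CB-103 for 2533 genes (14.6%), 965 of them DMSO calls and 303 (1.75%) differing at least 2-fold. It differed from that under GSI for 484 genes (2.79%), 183 of them DMSO calls and 54 (0.311%) differing at least 2-fold. The count against GSI depended on single libraries. It was 53, 140 and 214 without NT DMSO replicate 1, 2 or 3, 237 and 177 without KO DMSO replicate 1 or 2, and 488 without KO DMSO replicate 3. Among the GSI libraries it was 107, 1505 and 168 without NT GSI replicate 1, 2 or 3, and 383, 114 and 69 without KO GSI replicate 1, 2 or 3.

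PIK3R1 itself was not called between genotypes with CB-103 in the gene table (-0.16, edgeR adjusted p = 0.17) and was lower with GSI (-0.95, adjusted p = 3.9e-07), and its effect under DMSO minus that under CB-103 was -0.81 ± 0.13 (edgeR adjusted p = 3.4e-04). With CB-103 the PIK3R1 transcript ENST00000521381 was still lower in KO, without overlap. It was at 6.05, 5.72 and 5.76 TPM in KO, against 7.07, 8.06 and 6.71 TPM in NT. CCND3, lower in KO under DMSO, was higher in KO with CB-103 (0.44), a difference of -0.99 ± 0.10 (edgeR adjusted p = 1.2e-05). Its effect with GSI was -0.66, and the difference from DMSO of 0.12 ± 0.10 did not pass (edgeR adjusted p = 0.56). PRDX1 also turned, at 0.72 with CB-103 against -0.39 with DMSO (difference -1.11 ± 0.07, edgeR adjusted p = 1.7e-07). MEOX1 and AHNAK, lower in KO under DMSO, were at 0.56 and 0.14 with CB-103, neither called (differences -2.60 ± 0.31 and -2.17 ± 0.45, edgeR adjusted p = 3.6e-05 and 0.0035). Both were near 1 CPM in either genotype with CB-103. MEOX1 was at 1.22 ± 0.15 CPM in KO and 0.825 ± 0.16 CPM in NT with CB-103, against 3.29 ± 0.66 CPM in KO and 13.5 ± 1.8 CPM in NT under DMSO (SD, n = 3 each). AHNAK was at 0.891 ± 0.43 CPM in KO and 0.806 ± 0.038 CPM in NT with CB-103, against 1.29 ± 0.33 CPM in KO and 5.27 ± 1.8 CPM in NT under DMSO.

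KRT1, DAB2IP, RXRA and ACY3 also differed in log2 effect, and their NT level was lower under the inhibitor than under DMSO. KRT1, a type II keratin, was at 41.5, 44.8 and 45.2 CPM in KO, against 22.8, 24.5 and 24.9 CPM in NT under DMSO (0.86 ± 0.11, edgeR adjusted p = 1.3e-05) and at 3.08 with CB-103 and 2.49 with GSI, with differences of -2.21 ± 0.19 and -1.62 ± 0.16 (edgeR adjusted p = 2.4e-06 and 8.1e-05). Its level was 9.46 ± 1 CPM in KO and 1.11 ± 0.034 CPM in NT with CB-103 and 36.7 ± 3.5 CPM in KO and 6.55 ± 1.4 CPM in NT with GSI. DAB2IP, a RAS GTPase activator and tumour suppressor, was at 1.62 under DMSO and 3.61 with CB-103 (difference -1.99 ± 0.33, edgeR adjusted p = 5.5e-04), where it averaged 2.77 ± 0.53 CPM in KO and 0.223 ± 0.036 CPM in NT. RXRA, the retinoid X receptor alpha, was at 13.6, 12.1 and 13.1 CPM in KO, against 4.82, 5.58 and 4.20 CPM in NT under DMSO (1.41 ± 0.10, edgeR adjusted p = 3.3e-08) and at 3.53 with GSI (difference -2.12 ± 0.19, edgeR adjusted p = 6.2e-05), where it averaged 4.73 ± 0.66 CPM in KO and 0.406 ± 0.037 CPM in NT. ACY3, an aminoacylase, was at 7.11, 7.75 and 8.003 CPM in KO, against 21.6, 21.8 and 20.5 CPM in NT under DMSO (-1.48 ± 0.17, edgeR adjusted p = 5.6e-06), while with GSI it was not called (0.27, difference -1.75 ± 0.26, edgeR adjusted p = 0.0076), at 2.23 ± 0.45 CPM in KO and 1.85 ± 0.14 CPM in NT. TEAD4, ID2 and ZNF486 had effects of 5.08, 2.41 and -4.81 with CB-103 and 4.05, 2.59 and -5.12 with GSI, and none of their differences from the DMSO effect passed (edgeR adjusted p of 0.16 to 0.98). The 10 differences given here as called, 7 from CB-103 and 3 from GSI, kept an adjusted p under 0.05 in all 22 alternatives run for each, the highest at 0.032.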

How the data were processed

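RNA was measured in RPMI-8402 cells, in 6 groups of 3 libraries, with stranded polyA libraries, per the labels' protocols. Per the submitters' processing notes, which give no order or role, the tools were bcl2fastq 2.20, FastQC 0.11.9, HISAT2 2.2.1 and Salmon 1.4.0, with build hg38. The gene values are estimated counts that the authors rounded to whole numbers and deposited, and how genes were summed from transcripts is not given in the sources used here. TPM and estimated counts per transcript were deposited by the authors for each library.

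Genes were annotated with GENCODE 29, and 58207 of 58735 IDs matched a current symbol. All 18 libraries were fitted with 1 mean per group in edgeR 4.0.16 (R 4.3.3, limma 3.58.1), after filterByExpr and TMM scaling, which assumes that most genes do not change. The quasi-likelihood test was adjusted by Benjamini-Hochberg over all 17346 genes and called at 0.05. The steps were tested on simulated data. CPM are scaled by TMM. Sums of transcript counts were rounded before testing.

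Members and gene lists were chosen with earlier results of these data known, so lists are described without a test. The genes named are a fixed set of PI3K, NOTCH and FOXO genes, the 15 largest rises and falls among called protein-coding genes at 5 CPM or more without overlap, up to 4 called members of each list, and the largest called differences between treatments. The text describes 130 tested genes, 7 of them chosen after their values were seen. Alternatives were DESeq2 1.42.0 (test and size factors), limma-voom, no filter, only the groups compared, a replicate block, transcript sums, mitochondrial genes left out, each library left out in turn, replicates 2 and 3 alone, a fold of 2 added and, chosen after seeing the data, the shifted stretches left out. Promoter windows come from RefSeq (GRCh38.p14). Results for some genes are not reported here.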

Additional observations from a re-analysis of the deposited data

Results flagged for a closer look

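The effect of the knockout, KO over NT on the log2 scale, was larger or smaller under DMSO than under an inhibitor for some of the genes named, by edgeR's interaction test at an adjusted p under 0.05. The values below are the effect under DMSO minus that under the inhibitor. A negative value means that KO over NT lay lower under DMSO, not that the change was weaker there. CD44, for example, was at -2.44 under DMSO and -1.39 with CB-103, a larger fall under DMSO. For CB-103 there are 56 such differences, 8 above 0 and 48 below. For the PI3K subunits PIK3R1, PIK3R3, PIK3CD and PIK3CG the differences from CB-103 were -0.81, -0.33, -0.48 and -0.87. The differences were -0.58, -0.60, 0.30 and -0.99 for the NOTCH pathway genes NOTCH1, DTX1, HEYL and CCND3. For genes of large change under DMSO, TCEAL3, SEMA7A, SLFN5, HBEGF, CD44, RAB27A, MEOX1, AHNAK, AIG1, F2RL2 and GPA33, they came to 0.79, -0.93, 0.92, -0.58, -1.05, -0.81, -2.60, -2.17, -0.58, -1.01 and -0.50. TNFSF10, CDKN1A, RB1, BID and E2F2 differed by -0.73, 1.11, -0.93, -0.82 and -0.41. In metabolic and redox genes, MTHFD1, AMD1, LDHA, ALDOC, SLC16A1, HK2, SLIRP, STARD4, PYCR1, PRDX1 and TXNRD1, the values were -0.28, -0.48, -0.56, -0.54, -0.46, -0.42, -0.35, 0.56, -0.50, -1.11 and -0.34. ETV5, LTB, OAS1, BCL11B, IL6R, IL2RB, CCR4, ITPKB, CD247, CD3G and IGLL1, genes of T cells, cytokine receptors and signal feedback, stood at -1.50, -0.89, 0.77, -0.49, -1.01, -0.72, -0.89, -0.37, -0.38, -0.48 and -0.89. The cytoskeleton, chaperone and chromatin genes ACTN1, FLNA, HSP90AA1 and TET1 were at -0.34, -0.38, -0.61 and -0.44. KRT1, DAB2IP and ACY3, among the largest differences, were at -2.21, -1.99 and -1.09. ITGB2 was at -0.78. The difference of 3.24 for NEK3 is a fitted value that rests on 2 NT DMSO reads, and that of 9.81 for ENSG00000273590 on its 1 high library, KO DMSO replicate 1, and both were lost in replicates 2 and 3 alone. Of the 56 differences, 38 were called under every alternative, and the calls of 12 were lost without 1 library: TCEAL3, HEYL, ALDOC, HK2, SLIRP, PYCR1, CDKN1A, IL6R, CCR4, ACTN1, TXNRD1 and ACY3.

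Against GSI there are 14, 3 above 0 and 11 below, and the count of such genes depended strongly on single libraries. NOTCH1, HES1 and IKZF2 were at 0.33, 0.96 and 0.54. TMEM132D, TNFSF10, SLIRP, RB1 and BID were at -0.74, -0.49, -0.54, -0.87 and -0.44, and ETV5, CD3G, KRT1, RXRA, ACY3 and RCBTB2 at -1.10, -0.38, -1.62, -2.12, -1.75 and -0.96. Of these 14, 5 were called under every alternative, and the calls of 6 were lost without 1 library: NOTCH1, TMEM132D, SLIRP, BID, CD3G and RCBTB2. The difference of RB1 from either inhibitor was lost with the sums of the transcript estimates. The causes of these differences were not tested.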

How the results depend on the processing

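The comparison of KO with NT under DMSO called 2944 to 3298 genes when any 1 of the 6 libraries was left out, against 3720 with all, 1250 to 1473 of them higher and 1652 to 1825 lower, with 535 to 589 of at least 2-fold. The other settings called between 2881 genes (shifted stretches left out) and 4740 (transcript sums, 3377 of them shared with the 3720). The count ranged from 5352 to 6141 with CB-103 and from 4711 to 5840 with GSI without 1 library, from 1833 to 2751 for the difference between DMSO and CB-103, and from 53 to 1505 for that between DMSO and GSI. PIK3R1 itself stayed between -1.002 and -0.94 on the log2 scale.

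A fold of at least 2 added to the adjusted p left 580 genes under DMSO, 926 with CB-103, 797 with GSI, 303 for the difference from CB-103 and 54 for that from GSI. The difference from GSI, 484 genes with all libraries, came to 1257 with the DESeq2 Wald test, 1291 with the replicate block, 995 with transcript sums, 830 without mitochondrial genes and 42 in replicates 2 and 3, and the cause was not tested. IL7R, not called, turned to 0.47 without NT DMSO replicate 3 and to 0.24 without KO DMSO replicate 3, in a range that started at -1.02 without KO DMSO replicate 2.

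Of 123 called genes that the text describes, 115 stayed called under every alternative, 8 lost the call under at least 1 and 5 of those 8 without a single library, each given in the text, and 0 reversed. Of 7 that were not called, PIK3CB, HES1, HES4 and MYC were called under at least 1 alternative. Calls higher in KO made up 38.4% to 46.6% of the calls across settings, against 45.6%, and the median of all genes stayed within 0.02 of 0. The deviations of same-numbered KO and NT libraries correlated at 0.384, 0.111 and 0.0729, so that not every pair passed 0.1, and replicate numbers were not taken to pair the libraries. The replicate 1 libraries did deviate together, at 0.384 with each other and -0.25 to -0.16 with other numbers, while those of replicates 2 and 3 did not correlate best with their own number. The replicate block called 4412 genes, 3704 of them among the 3720, and with it MYC (-0.16, edgeR adjusted p = 0.03) and HES1 (-0.22, edgeR adjusted p = 0.031) were called. With 3 libraries a group, an exact permutation test of 1 gene cannot go below p = 0.1, and genes under 1 CPM rest on few reads.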

Other observations

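Some genes outside the comparisons above also moved, and they are named here after their values were seen. IKZF2, which encodes the Ikaros family factor Helios of developing and regulatory T cells, was at 78.4, 78.8 and 79.1 CPM in KO, against 28.3, 29.5 and 33.5 CPM in NT, without overlap (log2 fold change 1.37 ± 0.06, edgeR adjusted p = 1.1e-10). CD38, a surface ectoenzyme of early and activated lymphocytes, was at 38.9, 39.9 and 35.7 CPM in KO, against 94.6, 97.8 and 111 CPM in NT (-1.40 ± 0.11, edgeR adjusted p = 1.1e-07). ITGB2, the beta chain of the integrin LFA-1 that binds ICAM1, was at 109.5, 113 and 116 CPM in KO, against 61.2, 71.8 and 62.3 CPM in NT (0.79 ± 0.08, edgeR adjusted p = 1.1e-06), so that RNA of an integrin chain and of its ligand were both higher in KO.

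A pair of genes below the level used for naming genes was nearly all or nothing between the groups. NEK3, a kinase gene of the chromosome 13 stretch, was at 1.92, 2.12 and 1.67 CPM in KO, against 0, 0 and 0.0469 CPM in NT (edgeR adjusted p = 1.7e-07). PEPD, which encodes a dipeptidase that releases proline, was at 0, 0 and 0.0834 CPM in KO, against 1.45, 1.39 and 1.55 CPM in NT (edgeR adjusted p = 2.7e-05). The low groups held 2 reads of NEK3 over the 3 NT libraries and 3 reads of PEPD over the 3 KO libraries, so no size of change is given. Both kept their direction in the other treatments, with an edgeR adjusted p of 8.0e-06 with CB-103 and 1.8e-06 with GSI for NEK3, and of 1.2e-04 and 2.9e-04 for PEPD.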
